A study of Mus musculus with 4 samples.

Results

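The genes described here are those of the Wnt signalling family in mouse lung: ligands, Frizzled receptors, secreted antagonists, R-spondins with their Lgr receptors, and the pathway genes Axin2 and Lef1. They were chosen by symbol alone, as every gene whose GRCm38 symbol starts with Wnt, Fzd, Sfrp, Dkk, Lgr or Rspo followed by a digit, with Axin2, Lef1, Wif1 and Notum added. This gave 49 of the 47729 genes in the files: 19 ligands, 10 Frizzled receptors, 10 secreted antagonists, 8 R-spondin and Lgr genes and the pair Axin2 and Lef1. One of the 49, Rspo4os, is a transcript antisense to Rspo4 and was caught by the symbol pattern alone. RNA sequencing was done on whole lung of BL/6 mice that all carried the genotype labelled Control (Rosa). In the normoxia group 6 mice were pooled into 2 libraries, 1 from 3 females and 1 from 1 female and 2 males. In the Sugen-hypoxia group, where Sugen, which inhibits VEGF receptors, was combined with hypoxia, 4 males were pooled into 2 libraries. The series concerns mutations of KCNK3, a potassium channel gene, and its mutant arm was not analysed here. The sources used here do not give the age of the mice, the Sugen dose or the length of hypoxia, and no group here had one agent alone.

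Wnt proteins are secreted, lipid-modified ligands that bind Frizzled receptors together with the co-receptors Lrp5 and Lrp6. Binding halts the breakdown of beta-catenin, which then acts in the nucleus with factors of the TCF and LEF family, while other Wnt signals run through planar cell polarity proteins without beta-catenin. R-spondins acting through Lgr receptors keep Frizzled proteins at the cell surface. Wif1, Notum and members of the Sfrp and Dkk families are secreted and can restrain the signal. In lung the pathway is known for the specification of the organ in the embryo and for the upkeep of alveolar type 2 cells in the adult.

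Libraries held 57.3 to 67.1 M reads counted in genes (M, 1e6). The alveolar type 2 gene Sftpc stood at 11250 to 12412 CPM (reads per 1e6 gene reads, after TMM scaling of library sizes) in the 4 libraries. The extraction text names another organ, and the 6 kidney markers summed to 0.0361 to 0.367 CPM, with Kap at 0 in every library. In all, 2163 of 18783 tested genes differed between the groups in edgeR's quasi-likelihood test at an adjusted p under 0.05. Of the 10 T cell markers 8 were lower (summed level 116 to 121 CPM in normoxia and 63.5 to 70.3 CPM after treatment, none at 0 in any library), of 6 B cell and 6 ciliated markers 6 and 6 were lower, and of 8 smooth muscle and 6 pericyte markers 4 and 3 were higher. Of 8 capillary endothelial markers 6 were lower and 2 higher. Their summed level was 2268 to 2380 CPM in normoxia and 2163 to 2449 CPM after treatment. Cdh5, the most abundant of the 8 and 1 of the 2 higher, weighs most in that sum. It was at 1141 and 1162 CPM in normoxia and 1871 and 1599 CPM after treatment. Plvap, the next most abundant, went from 629 and 544 CPM to 234 and 242 CPM. Of 6 cardiac muscle markers 1 was lower. Both treated libraries lay below both normoxic ones for all 6, as they did for 31.6% of all tested genes. The part of these cell types in the values of vessel-wall and endothelial genes given below was not tested. In bulk tissue, fewer cells of a type and less RNA per cell cannot be told apart.

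Of the 49 genes, 41 passed the filter on low counts, which keeps genes with enough reads in at least 2 libraries. In Sugen-hypoxia lungs 2 of the 41 rose, the receptor Fzd6 and the ligand Wnt9b, and 3 fell, the ligands Wnt2b and Wnt11 and the antagonist Wif1. The other 36 did not pass. The 5 calls are 12.2% of the family, beside 11.5% of all tested genes, with 5.51% of all genes higher and 6.01% lower. The median log2 fold change (Sugen-hypoxia over normoxia) was -0.07 over the family and -0.00390 over all tested genes, and the median size without sign was 0.26 and 0.21. The libraries of the groups did not overlap for 9 members in the higher and 12 in the lower direction, 22.0% and 29.3% of those tested, beside 30.0% and 31.6% of all tested genes (61.7% in either direction). As a family, then, the Wnt genes were called about as often as any other gene, and what can be described is which members moved.

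**Figure D1:**
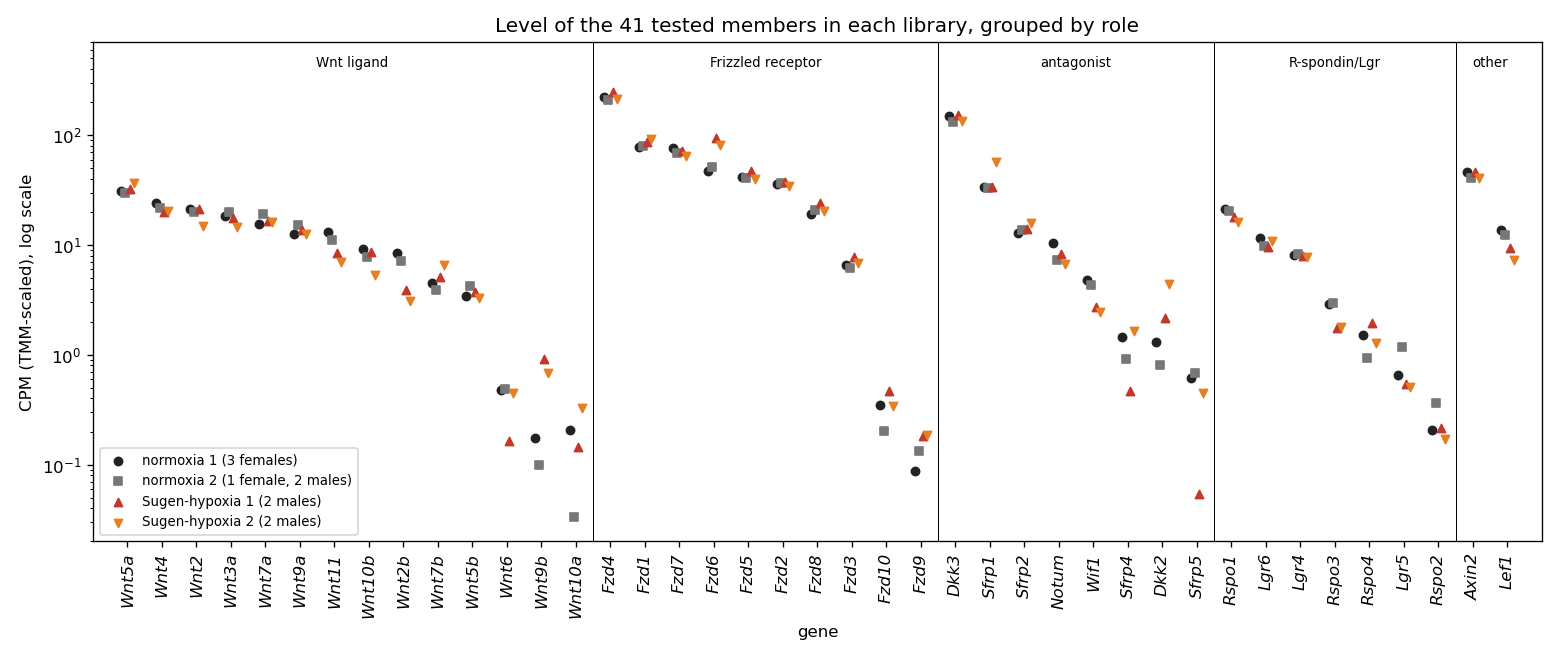
Level of the 41 tested members in each of the 4 libraries as TMM-scaled CPM on a log axis, grouped by role and ordered within a role by the normoxic mean; each point is 1 library. Fzd6 lies higher in both Sugen-hypoxia libraries (95.0 and 80.8 CPM) than in both normoxic ones (47.6 and 51.2 CPM), while Fzd4 and Dkk3 overlap between the groups.

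Wnt2b (ENSMUSG00000027840, GRCm38 chromosome 3, 104945272 to 104961921, minus strand), a close relative of Wnt2 that acts with it in specifying the lung of the embryo, was at 8.44 and 7.09 CPM in normoxia and at 3.86 and 3.07 CPM in Sugen-hypoxia. Both treated libraries lay below both normoxic ones. The log2 fold change was -1.16 ± 0.19 (SE; edgeR adjusted p = 0.020), a 2.24-fold fall. Wnt11 (ENSMUSG00000015957, chromosome 7, 98835112 to 98855195, plus strand), a ligand known mostly for signalling without beta-catenin, was at 13 and 11.1 CPM in normoxia and 8.39 and 7.0 CPM after treatment. Both treated libraries were again the lower ones. It fell 1.57-fold, a log2 fold change of -0.65 ± 0.14 (edgeR adjusted p = 0.0443). Wif1 (ENSMUSG00000020218, chromosome 10, 121033960 to 121100650, plus strand), a secreted protein that binds Wnt ligands, was at 4.84 and 4.34 CPM in normoxia and 2.72 and 2.44 CPM after treatment. The groups were again apart, and the log2 fold change was -0.83 ± 0.18 (edgeR adjusted p = 0.0449), a 1.78-fold fall.

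Fzd6 (ENSMUSG00000022297, chromosome 15, 39006034 to 39038188, plus strand), a Frizzled receptor known from planar cell polarity in skin and hair, was at 47.6 and 51.2 CPM in normoxia and at 95.0 and 80.8 CPM in Sugen-hypoxia, with the groups apart. Its log2 fold change of 0.83 ± 0.09 (edgeR adjusted p = 0.00896), a 1.78-fold rise, had the lowest adjusted p of the family. Wnt9b (ENSMUSG00000018486, chromosome 11, 103727364 to 103749821, minus strand), a ligand of kidney tubule development, was scarce in every library. It was at 0.176 and 0.100 CPM in normoxia (12 and 6 reads) and at 0.920 and 0.683 CPM (51 and 44 reads) in Sugen-hypoxia. The rise was 5.69-fold (log2 fold change 2.51 ± 0.48; edgeR adjusted p = 0.0308), from a level so low that few reads carry it.

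The calls depended on which libraries were fitted, in the family as in all genes. In edgeR without normoxia replicate 1 or without normoxia replicate 2, 0 of the 41 passed (7 and 6 had an unadjusted p under 0.05), and of all genes 17 and 55 were called higher and 8 and 58 lower. The log2 fold changes of the 5 genes without normoxia replicate 1 and without normoxia replicate 2 were 0.78 and 0.88 for Fzd6, 2.98 and 2.17 for Wnt9b, -1.03 and -1.29 for Wnt2b, -0.53 and -0.76 for Wnt11, and -0.74 and -0.91 for Wif1. Without Sugen-hypoxia replicate 1 it called 15 (7 higher, 8 lower) and without Sugen-hypoxia replicate 2 it called 10 (4 higher, 6 lower), while of all genes 2663 and 2323 were called higher and 2438 and 2454 lower. DESeq2 on all libraries called 7 members, and of all genes 1645 higher and 1603 lower. All treated animals were male, and treatment and the sex of the pools cannot be told apart. For Fzd6, Wnt2b, Wnt11 and Wif1 the mixed-sex normoxic pool lay between the all-female pool and the all-male treated pools, and for Wnt9b it did not. With each pool's share of males as a second term, which leaves 1 residual degree of freedom, edgeR called 0 members (4 at an unadjusted p under 0.05) and, of all genes, 4 as higher and 7 as lower. The fitted log2 fold changes of Wnt2b, Wnt11, Wif1 and Fzd6 were then -0.91, -0.42, -0.67 and 0.73, and that of Wnt9b 3.37. All 5 kept their direction in each of the 11 alternative fits.

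**Figure D2:**
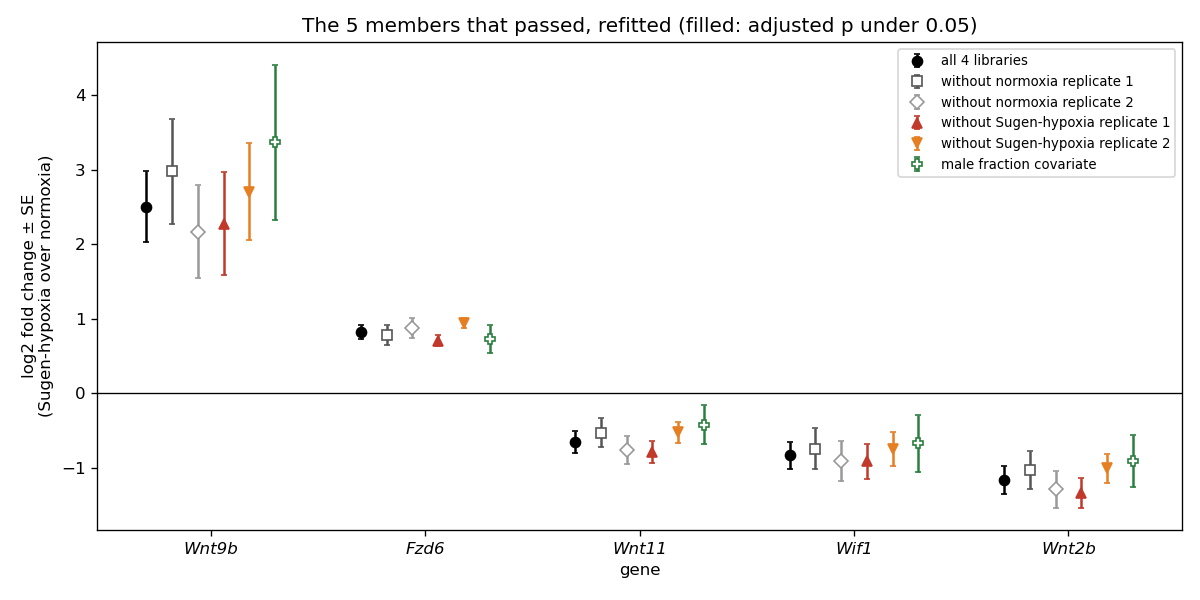
Log2 fold change (Sugen-hypoxia over normoxia) with its standard error for the 5 members that passed, fitted on all 4 libraries, with each library left out and with each pool's share of males as a second term; filled symbols have an adjusted p under 0.05. Wnt2b ranges from -0.91 to -1.34 and Fzd6 from 0.71 to 0.94, and the open symbols are the fits without a normoxic library or with the share of males.

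The promoters of the members that changed are shown so that their makeup can be read beside the values. RefSeq (GRCm38.p6) gave windows of 250 bases before a transcription start for 32 of the 49 members, in 38 windows, and Fzd6 was not among them. Windows were searched on both strands for the TCF/LEF letters CTTTGAA or CTTTGAT and for GCGTG, one form of the core bound by hypoxia-inducible factors. A match of one motif can share no more than its end base with a match of the other. Capitals mark a match, and the sequence is on the gene's strand, 5′ to 3′. For Wnt11 the more upstream of 2 RefSeq starts is printed (chr7:98834862-98835111, plus strand). For Wif1 (chr10:121033754-121033959, plus strand) the 44 bases that GENCODE places inside the gene are left off. For Wnt2b 212 of 250 bases lie inside the GENCODE gene, and the match with its flanks is printed alone (chr3:104961787-104961811, minus strand). The window of Wnt9b is at chr11:103749822-103750071, minus strand.
Wnt11: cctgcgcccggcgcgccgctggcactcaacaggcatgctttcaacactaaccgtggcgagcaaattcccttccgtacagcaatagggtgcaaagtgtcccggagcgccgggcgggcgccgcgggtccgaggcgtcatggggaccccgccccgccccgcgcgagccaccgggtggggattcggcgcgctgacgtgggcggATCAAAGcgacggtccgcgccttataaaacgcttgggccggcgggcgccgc
Wnt2b: tgaaggccgcGCGTGtccccggccc
Wnt9b: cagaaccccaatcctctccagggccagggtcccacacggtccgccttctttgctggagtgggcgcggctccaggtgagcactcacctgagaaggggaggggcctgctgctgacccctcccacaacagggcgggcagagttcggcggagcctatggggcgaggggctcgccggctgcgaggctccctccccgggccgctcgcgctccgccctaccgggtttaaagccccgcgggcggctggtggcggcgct
Wif1: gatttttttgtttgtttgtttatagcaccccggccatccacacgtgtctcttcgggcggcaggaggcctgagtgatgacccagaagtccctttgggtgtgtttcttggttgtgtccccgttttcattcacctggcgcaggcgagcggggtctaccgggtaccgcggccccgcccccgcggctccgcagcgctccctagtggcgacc
The Wnt11 window held 1 TCF/LEF match, read as ATCAAAG on the gene's strand, 51 bases before the start, and the window of its other start held GCGTG, 27 bases before that start. The Wnt2b window held GCGTG 92 bases before the start. Neither motif's letters were in the Wnt9b or the Wif1 window. Other forms of the core bound by hypoxia-inducible factors were not searched for in any window. ACGTG, another such form, can be read in lower case in the printed Wnt11 and Wif1 sequences, and its share over all windows was not counted. Over the family, 3 of 38 windows (7.89%) held a TCF/LEF match, those of Wnt11, Wnt5b and Dkk1, beside 7.48% of 32851 windows of all genes. GCGTG was in 18 of 38 windows (47.4%) beside 28.2% of all windows, and the median GC content was 66.6% in the family's windows and 52.4% in all windows. A match is a description of letters and was not tested as a site.

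The other ligands did not pass. Of 14 tested ligands 1 rose, 2 fell and 11 did not pass, so 21.4% were called beside 11.5% of all tested genes. The median log2 fold change of the 14 was -0.16. Compared per kilobase of exon, since longer genes collect more reads, Wnt2 was the most abundant ligand at a mean of 8.54 CPM per kb over the 4 libraries, followed by Wnt3a (6.40), Wnt7a (5.31), Wnt4 (5.12), Wnt5a (4.16) and Wnt9a (4.07). The ranges over libraries of Wnt2 and Wnt3a, of Wnt3a and Wnt7a, of Wnt7a and Wnt4, and of Wnt5a and Wnt9a overlapped. Such ranges set 1 library against another, and the order of these neighbours within each library was not compared. Wnt4 lay above Wnt5a in every library's range. Wnt11 (2.39), Wnt10b (2.26), Wnt5b (1.38), Wnt2b (1.34) and Wnt7b (1.03) formed a lower tier with each overlapping the next, and Wnt6, Wnt9b and Wnt10a were at 0.0718 to 0.180 CPM per kb.

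Wnt2, the ligand of lung mesenchyme that acts with Wnt2b in the embryo, was at 21.3 and 19.8 CPM in normoxia and 21.1 and 14.9 CPM after treatment. The groups overlapped, and the log2 fold change of -0.19 ± 0.17 did not pass (edgeR adjusted p = 0.488). So of this pair of related ligands the scarcer was called and the more abundant was not, and the difference between their changes was not tested. Wnt3a, a ligand that signals through beta-catenin, was at 18.4 and 20.1 CPM in normoxia and 17.5 and 14.7 CPM after treatment, a log2 fold change of -0.26 ± 0.11 (edgeR adjusted p = 0.199). Wnt7a was at 15.4 and 19.3 CPM in normoxia and 16.4 and 16.3 CPM after treatment (log2 fold change -0.08 ± 0.12; edgeR adjusted p = 0.696), with the normoxic pools farther apart than the groups. The remaining 8 tested ligands that did not pass ran from -0.64 for Wnt6 to 0.95 for Wnt10a, and both of these were under 0.5 CPM in every library.

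Several ligand genes sit beside another in the genome, and their levels are given pair by pair. Wnt9b lies 24.3 kb from Wnt3 on chromosome 11 in head-to-head orientation, and Wnt3 gave 12 reads over all 4 libraries while Wnt9b averaged 0.138 CPM in normoxia and 0.802 CPM after treatment. Wnt10b, at 8.46 CPM in normoxia, lies 11.7 kb from Wnt1, which gave 5 reads in all. Wnt6 and Wnt10a, 6.19 kb apart on chromosome 1, were both scarce. Wnt3a and Wnt9a, 16.2 kb apart on chromosome 11, were both well expressed, at 19.2 and 14.0 CPM in normoxia, with log2 fold changes of -0.26 and -0.09.

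Among the Frizzled receptors Fzd6 rose and the other 9 did not pass. Their median log2 fold change was 0.16 (range -0.08 to 0.73), and the median of all 10 was 0.17. Fzd4, the receptor of norrin as well as of Wnt ligands and known from retinal vessels, was the most abundant at 33.1 CPM per kb, followed by Fzd1 (20.1), Fzd7 (15.5), Fzd6 (14.2) and Fzd2 (9.89). The ranges of Fzd4, Fzd1 and Fzd7 did not overlap one another, while Fzd6 (9.89 to 19.7) overlapped Fzd1, Fzd7 and Fzd2. In normoxia Fzd6 stood below Fzd7 per kb (10.3 and 15.9) and after treatment above it (18.2 and 15.1).

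Fzd4 was at 222 and 209 CPM in normoxia and 246 and 213 CPM after treatment, a log2 fold change of 0.09 ± 0.09 (edgeR adjusted p = 0.532). Fzd1 was at 78.4 and 79.9 CPM in normoxia and 86.1 and 92.8 CPM after treatment. Its groups did not overlap, yet its log2 fold change of 0.18 ± 0.06 did not pass (edgeR adjusted p = 0.122). Fzd7 was at 75.8 and 68.2 CPM in normoxia and 72.3 and 64.1 CPM after treatment, overlapping between the groups (log2 fold change -0.08 ± 0.09; edgeR adjusted p = 0.593). The lowest of the receptors, Fzd10 and Fzd9, stayed under 0.5 CPM in every library.

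**Figure D3:**
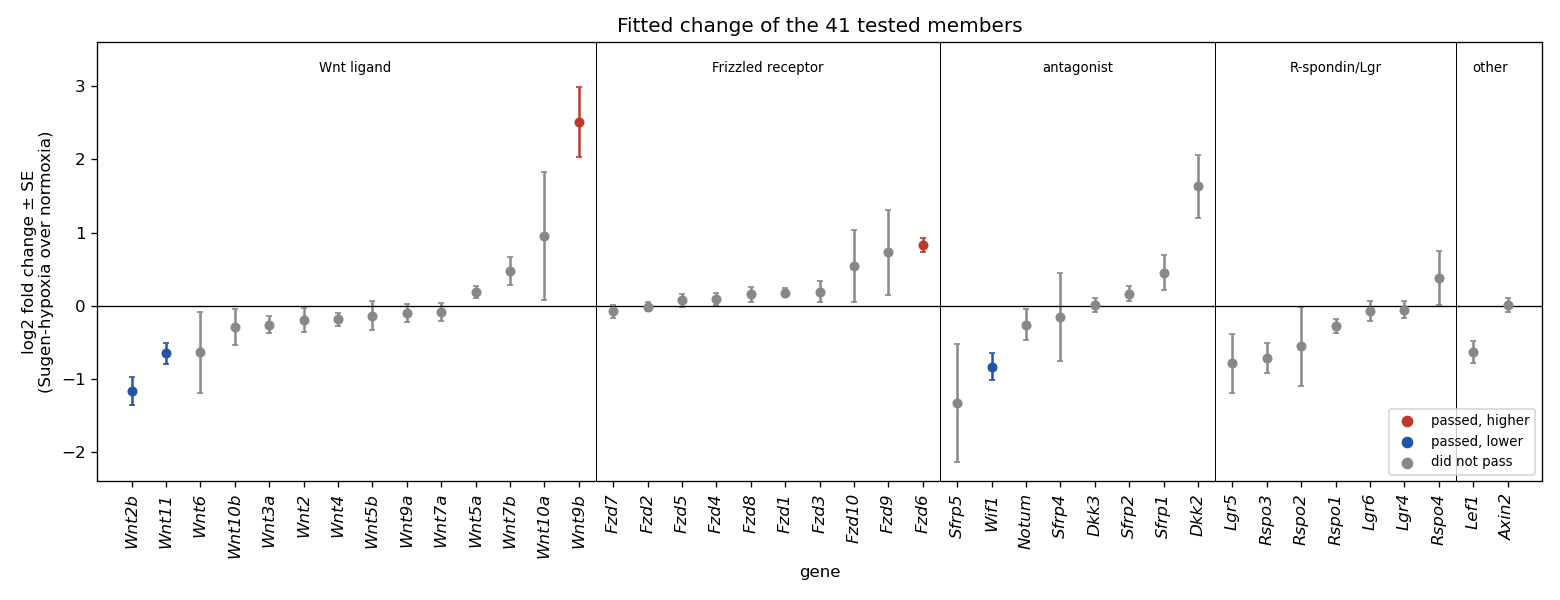
Log2 fold change (Sugen-hypoxia over normoxia) with its standard error for the 41 tested members, grouped by role; red and blue points passed as higher and lower at an adjusted p under 0.05. Of the 41 points 19 are under 0.2 in size, and the wide bars belong to genes with few reads, such as Wnt10a and Sfrp5.

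Of 8 tested antagonists Wif1 fell and 7 did not pass, with log2 fold changes from -1.33 (Sfrp5) to 1.63 (Dkk2). Dkk3, a divergent Dickkopf protein placed among the antagonists by its symbol alone, was the most abundant gene of the whole family per length at 42.2 CPM per kb. It was followed in this group by Sfrp1 (9.02), Sfrp2 (6.51), Notum (3.38) and Wif1 (1.48), each range clear of the next. Dkk3 was at 150 and 132 CPM in normoxia and 152 and 134 CPM after treatment. These pairs match closely, and the log2 fold change was 0.01 ± 0.09 (edgeR adjusted p = 0.936). With library size as the only scaling its sign turned (-0.05).

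Sfrp1, a soluble decoy with a Frizzled-like domain, was at 33.9 and 32.7 CPM in normoxia and at 33.5 and 57.6 CPM after treatment. Only Sugen-hypoxia replicate 2 stood above the rest, and the log2 fold change of 0.45 ± 0.24 did not pass (edgeR adjusted p = 0.270). Sfrp2, a related decoy, was at 12.8 and 13.6 CPM in normoxia and 13.9 and 15.7 CPM after treatment (log2 fold change 0.16 ± 0.10; edgeR adjusted p = 0.341). Dkk2, which binds the co-receptor Lrp6 and is singled out here after its values were seen, was at 1.30 and 0.801 CPM in normoxia and 2.17 and 4.38 CPM after treatment. The groups did not overlap, but the treated libraries differed as much as the groups did, and the log2 fold change of 1.63 ± 0.43 did not pass (edgeR adjusted p = 0.0680). It passed in 4 of 11 alternative fits, among them DESeq2 (adjusted p = 0.00354), with the adjusted p ranging from 0.000111 to 0.531 and the log2 fold change 1.04 without Sugen-hypoxia replicate 2. Sfrp4 likewise split the treated libraries, at 0.469 and 1.65 CPM.

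Of the 7 tested R-spondin and Lgr genes 0 passed in edgeR, DESeq2 or limma-voom. Rspo1 and Rspo3 were the 2 with an unadjusted edgeR p under 0.05, and Rspo1 passed without Sugen-hypoxia replicate 1. The median log2 fold change was -0.27, and 6 of 7 fitted values were below 0. Rspo1, a secreted amplifier of Wnt signalling, was the most abundant at 9.81 CPM per kb. It was at 21.4 and 20.2 CPM in normoxia and 18.2 and 16.3 CPM after treatment, a log2 fold change of -0.27 ± 0.09 (edgeR adjusted p = 0.113). Lgr6 was at 11.6 and 9.77 CPM in normoxia and 9.54 and 10.8 CPM after treatment, and Lgr4 at 8.09 and 8.21 CPM and then 7.99 and 7.71 CPM. Their log2 fold changes were -0.07 ± 0.13 and -0.05 ± 0.11 (edgeR adjusted p = 0.761 and 0.794). The groups overlapped for Lgr6, and for Lgr4 the treated libraries were slightly lower. Rspo3, known as a product of vessel walls and singled out after its values were seen, was at 2.88 and 2.95 CPM in normoxia and 1.75 and 1.80 CPM after treatment. Both treated libraries were lower, and the log2 fold change of -0.72 ± 0.21 did not pass (edgeR adjusted p = 0.0818) in the main or any of the 11 alternative fits.

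Axin2, a feedback inhibitor widely used as a readout of beta-catenin signalling, was at 45.8 and 40.6 CPM in normoxia and 46.4 and 40.5 CPM after treatment. The groups overlapped, and the log2 fold change was 0.01 ± 0.10 (edgeR adjusted p = 0.970), with the sign turned to -0.06 by library size scaling. Lef1, a nuclear partner of beta-catenin that T cells also express, was at 13.6 and 12.4 CPM in normoxia and 9.47 and 7.37 CPM after treatment. Both treated libraries lay lower, and the log2 fold change of -0.63 ± 0.15 was just short of the threshold (edgeR adjusted p = 0.0532). Lef1 passed in 6 of 11 alternative fits, among them DESeq2 (adjusted p = 0.00749) and limma-voom (0.0453), and over all 11 the adjusted p ran from 0.000414 to 0.663. The T cell markers moved with it (8 of 10 lower, median log2 fold change -1.01, none at 0 in any library), and their part in the Lef1 value was not tested.

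The 8 members that were not tested had at most 14 reads over all libraries. Wnt8a and Dkk4 had 0 reads in every library, which allows up to 0.0439 to 0.0541 CPM (3 reads per library; counting error only). Wnt1, Wnt3, Wnt8b, Wnt16, Dkk1 and Rspo4os gave 4 to 14 reads in all, none of them above 0.146 CPM in any library, so no difference in them was detectable at this depth. Where the annotation places a gene on the opposite strand across a member, counts by strand kept the strands apart. For Notum, which has such overlaps, leaving strand out kept 0.53 of the reads. For Wnt2b the overlapping gene lies on the same strand and had 0 reads. Leaving strand out still raised the reads of Wnt2b 1.25-fold and took its log2 fold change to -0.96, and the source of these reads was not tested.

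The rest of the pathway was read from a list of 78 genes outside the family, of which 77 were tested. Of these 8 rose and 3 fell, 14.3% beside 11.5% of all tested genes, and the median log2 fold change was 0.05. With library size as the only scaling the split was 5 higher and 6 lower (all genes: 765 and 1584, against 1035 and 1128). Of 17 genes of the cytoplasmic core, Ctnnb1 among them, 0 passed in the main edgeR fit (2 at an unadjusted p under 0.05). With no filter edgeR called 2 of the 17, DESeq2 called 2 and limma-voom 1. The median log2 fold change of the 17 was 0.07 (range -0.13 to 0.30). Beta-catenin itself, Ctnnb1, was at 825 and 840 CPM in normoxia and 1039 and 1009 CPM after treatment. The groups did not overlap, and the log2 fold change of 0.30 ± 0.07 was just short of the threshold (edgeR adjusted p = 0.0568).

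The calls came from the other lists. Of 13 tested inhibitors outside the family 3 rose, Sost, Nkd1 and Nkd2, and 10 did not pass. That is 23.1% of a short list, beside 11.5% of all tested genes called in either direction. The median log2 fold change of the 13 was 0.05, with 7 fitted values above 0 and 6 below. Sost, encoding sclerostin, an antagonist that binds Lrp5 and Lrp6, was at 0.366 and 0.117 CPM in normoxia and 1.88 and 1.89 CPM after treatment, a log2 fold change of 2.94 ± 0.52 (edgeR adjusted p = 0.0257) that was 4.0 without normoxia replicate 1. Nkd1 and Nkd2, which bind Dishevelled and dampen the signal, rose by 0.36 ± 0.08 and 0.59 ± 0.14 on the log2 scale (edgeR adjusted p = 0.0403 and 0.0486). Nkd2 was at 22.6 and 23.1 CPM in normoxia and 39.2 and 29.8 CPM after treatment. Ctnnbip1, which keeps beta-catenin from its nuclear partners, rose by 0.48 ± 0.09 (edgeR adjusted p = 0.0285). With library size scaling Nkd1 and Nkd2 did not pass, at log2 fold changes of 0.29 and 0.52 (edgeR adjusted p = 0.0511 and 0.0546).

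Of 15 genes listed as known targets, 3 rose and 1 fell, 26.7% of a short list beside 11.5% of all tested genes. Ccn4 and Ccn5, matricellular proteins once named Wisp1 and Wisp2 for their induction by a Wnt ligand, were the largest called rises after Sost among the pathway genes outside the family. Ccn4 was at 6.48 and 7.20 CPM in normoxia and 21.7 and 21.8 CPM after treatment, a log2 fold change of 1.67 ± 0.10 (edgeR adjusted p = 0.00357), and Ccn5 rose by 1.10 ± 0.11 (edgeR adjusted p = 0.00754). Nkd1 was the third. Tcf7, a TCF factor of T cells that is also on the nuclear list, fell from 44.6 and 41.6 CPM to 33.0 and 29.3 CPM, a log2 fold change of -0.47 ± 0.08 (edgeR adjusted p = 0.0256). The T cell markers given beside Lef1 moved with it too, and their part was not tested. Over the 15 listed targets 8 fitted values were above 0 and 7 below. Axin2, a target gene within the family, did not pass while Ccn4 and Ccn5 did, and the difference between these changes was not tested.

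Of 12 co-receptors and other surface partners 1 rose (Adgra2) and 2 fell (Ndp and Reck), 25% beside 11.5% of all tested genes. The median log2 fold change was -0.01. Norrin, encoded by the X-linked Ndp, is a ligand of Fzd4 that works with Lrp5 and Tspan12. Ndp was at 0.702 and 0.717 CPM in normoxia (48 and 43 reads) and at 0.0722 and 0.0466 CPM after treatment (4 and 3 reads), an 11.7-fold fall with a log2 fold change of -3.55 ± 0.49 (edgeR adjusted p = 0.0146). The all-female and the mixed normoxic pools were alike in it, but no normoxic pool was all male. For Ndp, too, sex and treatment cannot be told apart. Fzd4, Lrp5 and Tspan12 did not pass, with log2 fold changes of 0.09, 0.09 and -0.12. Reck and Adgra2, which together pass Wnt7a and Wnt7b signals to brain endothelium, went opposite ways. Reck fell from 117 and 112 CPM to 84.7 and 67.6 CPM (log2 fold change -0.59 ± 0.11; edgeR adjusted p = 0.0308), and Adgra2 rose from 93.7 and 96.8 CPM to 124 and 118 CPM (0.34 ± 0.06; edgeR adjusted p = 0.0211). Of their ligands, Wnt7a is given above and Wnt7b was at 4.52 and 3.92 CPM in normoxia and 5.12 and 6.58 CPM after treatment, which did not pass (log2 fold change 0.47 ± 0.19; edgeR adjusted p = 0.168). Adgra2, like Wnt7b and the receptor partners that did not pass, was named after its values were seen, as was Vangl1, a planar polarity gene and the last of the 8 that rose (0.32 ± 0.07; edgeR adjusted p = 0.0499). Vangl1 did not pass with library size scaling (0.25; edgeR adjusted p = 0.0742) or in limma-voom (0.32; adjusted p = 0.0556), and neither did Nkd2 in limma-voom (0.57; adjusted p = 0.0580).

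**Figure D4:**
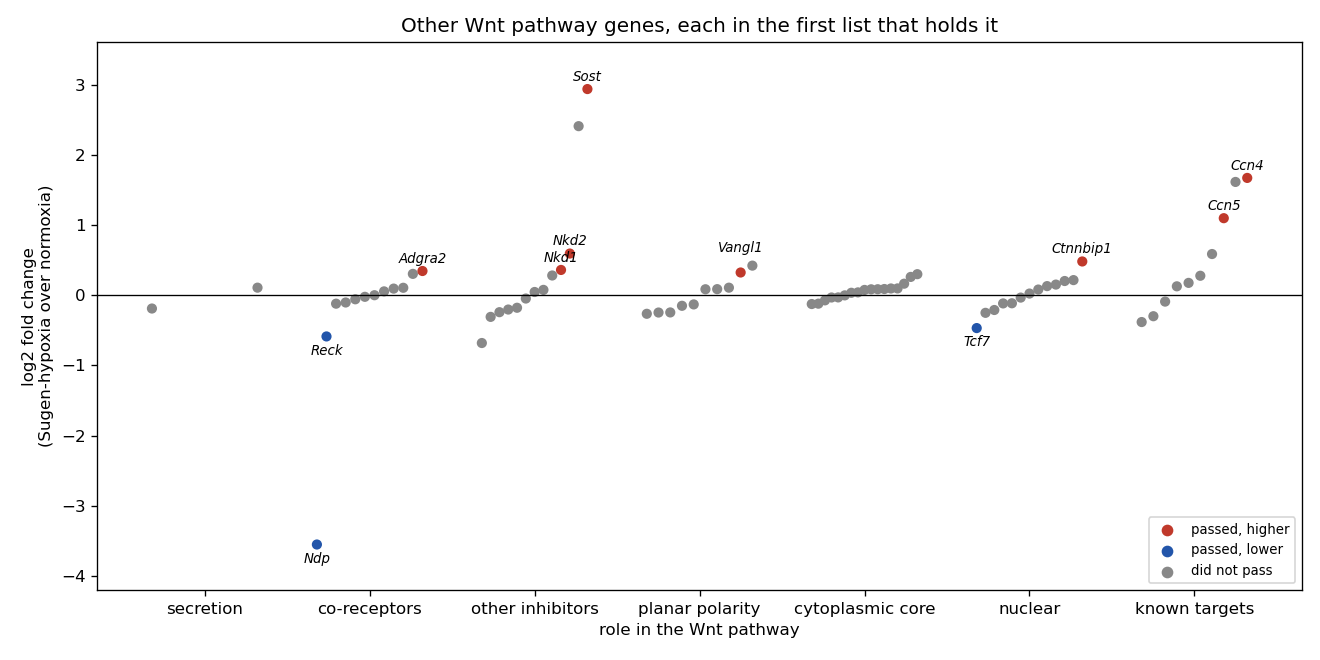
Log2 fold change (Sugen-hypoxia over normoxia) of the 77 tested pathway genes outside the family, by role, each in the first list that holds it; red and blue points passed as higher and lower. The cytoplasmic core lies between -0.13 and 0.30, while Ndp (-3.55) and Sost (2.94) stand farthest from 0.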

How the data were processed

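Whole-lung RNA of 4 pooled libraries was analysed. The authors deposited raw read counts per gene for each library; STAR 2.5.1b, HTSeq and GRCm38.p4 come from the submitters' processing notes. The sources used here do not give the annotation or whether the kit was stranded. Counts in column 4 were 20.9 to 24.9 times those on the opposite strand and were used, with the unstranded column as an alternative. Rows for unmapped, multimapping, unassigned and ambiguous reads (6.45 to 7.55%, 4.50 to 4.54%, 7.73 to 9.98% and 1.10 to 1.13% of reads) were left out. GENCODE mouse release 21 gave symbols for 47310 of 47729 genes, coordinates and exon lengths.

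Genes kept by filterByExpr (18783) were tested with edgeR 4.0.16 (R 4.3.3): TMM scaling, quasi-likelihood test, group as the only term, Benjamini-Hochberg adjustment over all tested genes at 0.05. The test was also run on simulated counts, with no spread particular to a gene and no sex difference between pools. No result here rests on that run. Standard errors were derived from the F statistic. Alternatives were DESeq2 1.42.0, limma-voom (limma 3.58.1), RLE factors, library size alone, no filter, unstranded counts, the male fraction of the pool, and each library left out. Replicate numbers follow record order. P-values measure only the spread between these pools. At 57.3 to 67.1 M gene reads per library, counting error limits only the scarcest genes. The family, the pathway list, the markers and the rule for naming genes were chosen with earlier results of these data known. The rule named every member past the threshold, the 3 most abundant others per length in each role, and at most 6 called pathway genes per direction.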

Additional observations from a re-analysis of the deposited data

How the results depend on the processing

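No paired analysis was possible because replicate numbers follow record order and pair no samples. Counts of calls are given as higher and lower. For all genes they were 1035 and 1128 (main), 1645 and 1603 with DESeq2, 1775 and 1882 with no filter, 765 and 1584 with library size alone, 4 and 7 with the male fraction, and 17 to 2663 and 8 to 2454 with a library left out. For members they were 2 and 3 (main), 3 and 4 with DESeq2 or no filter, 0 and 0 with the male fraction, and 0 to 7 and 0 to 8 with a library left out. For other pathway genes they were 8 and 3 (main), 14 and 4 with DESeq2, 14 and 5 with no filter, 5 and 6 with library size alone, 0 and 0 with the male fraction, and 0 to 19 and 0 to 11 with a library left out, where the pathway gene that passed without normoxia replicate 2 was Ccn4. With RLE factors or unstranded counts all 52 named genes kept their direction and side of the threshold. Where a group keeps 1 library, that library is assumed to vary like the other group. The 16 calls among named genes were all lost with the male fraction and without normoxia replicate 1. With the male fraction Sost was at 4.80 and Wnt9b at 3.37. Signs turned only in genes that did not pass with all libraries. With library size alone these were Axin2 (-0.062) and Dkk3 (-0.055), and with the male fraction Fzd7 (0.076), Lgr6 (0.18), Notum (0.29) and Sfrp4 (0.54). With a library left out the log2 fold changes ran from -0.093 to 0.10 for Axin2, -0.078 to 0.12 for Dkk3, -0.063 to 0.041 for Fzd2, -0.014 to 0.19 for Fzd4, -0.042 to 0.19 for Fzd5, -0.17 to 0.0088 for Fzd7, -0.19 to 0.064 for Lgr6, -0.50 to 0.031 for Notum, -1.33 to 0.47 for Sfrp4, -0.67 to 0.016 for Wnt10b, -0.46 to 0.037 for Wnt2, -0.27 to 0.015 for Wnt5b, -0.23 to 0.085 for Wnt7a and -0.22 to 0.048 for Wnt9a. The cause of these shifts was not tested.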
